A study of Mus musculus with 6 samples.

Results

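The expression of 10 genes of the low-oxygen response and of blood vessel growth was measured in primary mammary epithelial cells (MEC) and in JNK-deficient mammary tumor cell lines (MEKO). The genes were *Hif1a*, *Egln3*, *Car9*, *Ndrg1*, *Bnip3*, *Pgf*, *Vegfa*, *Vegfc*, *Adm* and *Angptl4*. They were chosen by symbol, and each was found in the 37753 rows of the expression table that hold values, with the row of the highest mean taken for each symbol. All 10 passed the filter on low expression, which kept 12461 rows. The MEC group held 3 libraries, each from primary cells pooled from 3 to 5 virgin C57/Bl6J females of the genotype WAPCre+, aged 10 to 12 weeks. The MEKO group held 3 libraries, each from a cell line grown from the mammary tumor of a Cre+ mouse with Mapk8KO and Mapk9KO alleles. The Wap-Cre transgene is driven by a milk protein promoter that is active in luminal mammary cells, and all 6 libraries came from mice that carry Cre. The tumor cells passed 2 times on collagen I before they were moved to plain dishes, while RNA of MEC was taken from the primary culture. The labels describe no culture in low oxygen for either group. The lines carry the numbers 199, 233 and 336, and each is 1 tumor and 1 library. By mouse number, the study records adenosquamous carcinoma for 199, a mixture of adenosquamous carcinoma and adenocarcinoma for 233, and adenocarcinoma for 336. The study describes the tumor mice as parous and followed for tumors after weaning, and the labels give no age for them. JNK status, tumor origin, parity, mouse age and time in culture differ together between MEC and MEKO and cannot be told apart.

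Hypoxia-inducible factors (HIF) are pairs of an oxygen-regulated alpha subunit, such as HIF1A, and a stable partner, ARNT. In the presence of oxygen, prolyl hydroxylases of the EGLN family mark the alpha subunit, and the VHL ubiquitin ligase then targets it for degradation, so that HIF1A is controlled mainly as a protein and not as mRNA. When oxygen is low, HIF accumulates and switches on genes of glycolysis, pH control, mitophagy and angiogenesis. Many of these genes also answer to other signals, including nutrient and lipid sensors and growth factors.

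Values are in FPKM, fragments mapped to a gene, scaled by transcript length and by library size. Libraries summed to 557991 to 638365 FPKM, and between 17343 and 18741 rows were above 0. The deposited values carry no read numbers, so no counting interval is given. *Mapk8* and *Mapk9*, the genes targeted for deletion, were expressed at 19.2 to 25.1 and 21.5 to 24.4 FPKM in MEC. In the lines *Mapk8* was at 5.93, 3.12 and 1.37 FPKM, and *Mapk9* was at 7.62, 3.15 and 3.07 FPKM, in the order 199, 233 and 336. Every line was below every MEC library for both genes. These are levels of mRNA. The study used LoxP alleles of both genes, and its immunoblots found no JNK protein in tumor cells of this genotype. The 6 epithelial markers were above 0 in all libraries, but all 6 had a log2 fold change below 0. *Epcam*, *Cdh1* and *Krt8* fell in MEKO by 1.68, 1.66 and 2.72 on the log2 scale (limma, adjusted p = 0.0154, 0.00571 and 0.0106), beside 7.26% of all rows that fell. The keratins *Krt5* and *Krt14* were at 1.33 and 7.36 FPKM in line 233, at 15.3 and 24.0 FPKM in line 336 and at 608 and 521 FPKM in line 199. Line 199 stood apart in *Col1a1*, a fibrillar collagen, at 600 FPKM against 44.2 to 74.7 FPKM in MEC. In lines 233 and 336 *Col1a1* was at 1.08 and 0.566 FPKM. Of the 6 fibroblast markers that passed the filter, line 199 was above every MEC library for 4, beside 40.2% of all rows. It was below them for 1, beside 39.1% of all rows. This was *Dcn*, at 0.311 FPKM against 3.29 to 6.62 FPKM in MEC.

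The comparison of MEKO with MEC asked which of the 10 genes differ between JNK-deficient tumor cells and normal epithelium. *Pgf*, an angiogenic ligand of the VEGF family, and *Car9*, a membrane carbonic anhydrase and a widely used hypoxia marker, fell in MEKO. The mean FPKM of MEC was 9.51 times that of MEKO for *Pgf* and 6.89 times for *Car9*. None of the 10 genes rose. The threshold for a call was an adjusted p of 0.05 together with a log2 fold change of 0.75 in size, in a limma fit of log2(FPKM + 1) over all 12461 rows. By this rule 2 of the 10 genes were lower in MEKO, beside 7.26% of all rows, and 0 were higher, beside 2.64% of all rows. At an unadjusted p under 0.05 the fit held 3509 rows. Every line was below every MEC library for *Pgf*, *Car9* and *Ndrg1*, 3 of the 10 genes, beside 18.7% of all rows. No gene of the 10 had every line above every MEC library, a pattern found in 18.5% of all rows. The median log2 fold change of the 10 genes was -0.75, against 0.01 over all rows, with 9 of the 10 below 0. In an exact permutation test of single genes (two-sided, 20 regroupings), 3 against 3 libraries cannot give a p below 0.1. This smallest value was reached by *Pgf*, *Car9* and *Ndrg1*, and the exact p of the other 7 genes lay between 0.2 and 0.9. These p-values measure the spread between preparations and lines. In bulk RNA, fewer cells that express a gene and less RNA per cell cannot be told apart.

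**Figure D1:**
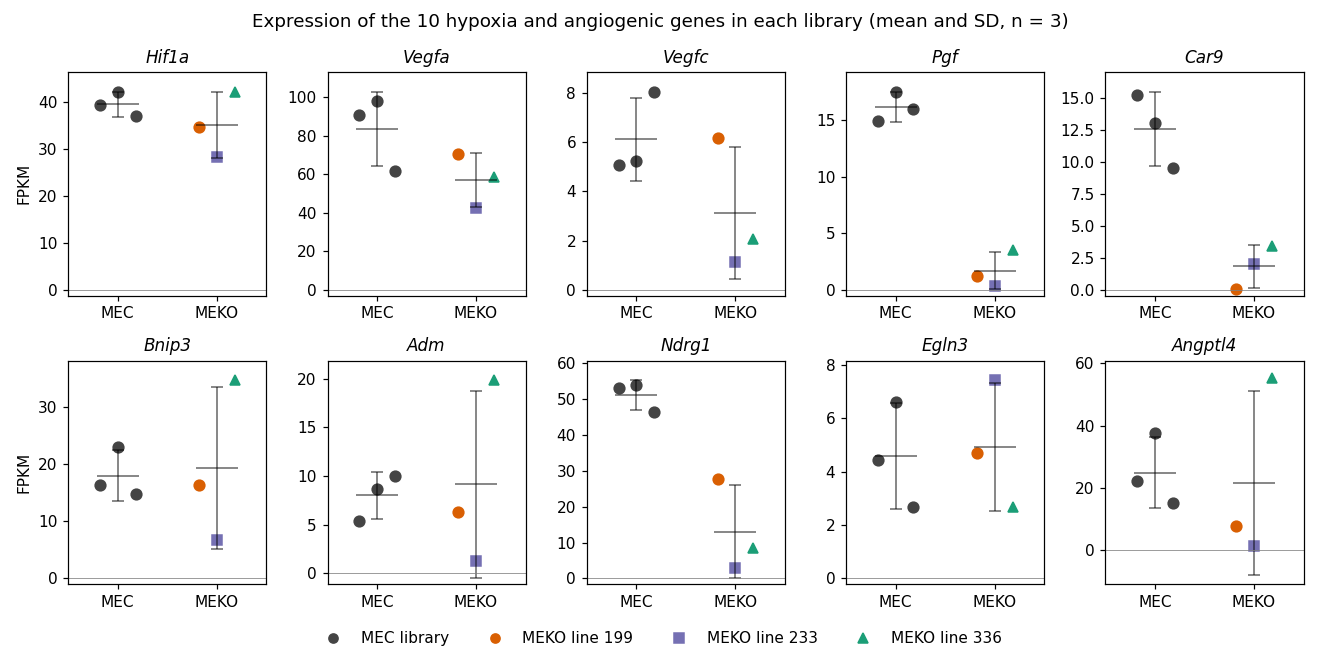
FPKM of the 10 genes in each library, with MEC as grey circles and the MEKO lines in colors. The horizontal bars give the mean and the error bars the SD (n = 3). The lines sit below all MEC libraries for *Pgf*, *Car9* and *Ndrg1*, and on both sides of MEC for *Bnip3*, *Adm* and *Angptl4*, where line 336 is the highest library and line 233 the lowest.

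*Hif1a*, on chromosome 12 at 73901375-73947530 (GRCm38, plus strand), encodes the oxygen-regulated subunit itself. It was expressed at 39.3, 42.0 and 36.8 FPKM in MEC 1, 2 and 3, and at 34.7, 28.2 and 42.1 FPKM in lines 199, 233 and 336. The groups overlapped, and the highest line and the highest MEC library were nearly level. The mean was 39.4 ± 2.61 FPKM in MEC and 34.995 ± 6.95 FPKM in MEKO (SD, n = 3), with a log2 fold change of -0.18 ± 0.18 (SE, limma adjusted p = 0.540). These are levels of mRNA, and the files hold no measurement of HIF1A protein.

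*Egln3* encodes a prolyl hydroxylase of HIF that is itself a HIF target in many cells. Its levels were 4.44, 6.62 and 2.67 FPKM in MEC and 4.70, 7.41 and 2.66 FPKM in the lines. The lines covered the range of the MEC libraries, and line 336 was only just below the lowest of them. MEKO differed from MEC by 0.07 ± 0.40 on the log2 scale (SE, limma adjusted p = 0.929), and the sign turned when MEC 3 or line 233 was left out.

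The other parts of the oxygen-sensing pathway were measured through 13 listed regulators, of which 12 passed the filter. None of them was called in either direction, beside 7.26% of all rows lower and 2.64% higher, and their median log2 fold change was -0.03. *Arnt*, the partner of HIF1A, was at 13.99 to 16.1 FPKM in MEC and at 11.3 to 15.1 FPKM in MEKO. *Egln1*, the main oxygen-sensing hydroxylase, was at 20.5 to 23.6 FPKM in MEC and 19.4 to 36.0 FPKM in MEKO, and *Vhl* was at 7.87 to 10.6 FPKM in MEC and 8.63 to 10.6 FPKM in MEKO. For these 3 genes the groups overlapped. *Epas1* encodes HIF2A, the other main alpha subunit, and was at 5.34, 6.69 and 6.21 FPKM in MEC and at 1.57, 1.52 and 5.96 FPKM in the lines. Lines 199 and 233 lay below MEC and line 336 lay among the MEC libraries. *Epas1* had a log2 fold change of -0.99 (limma, adjusted p = 0.186). *Arnt2*, a relative of *Arnt* named here after its values were seen, was the 1 of the 12 regulators with every line above every MEC library, beside 18.5% of all rows. It was at 0.260, 0.322 and 0.309 FPKM in MEC and at 2.41, 3.60 and 0.502 FPKM in the lines (log2 fold change 1.145, limma adjusted p = 0.153).

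*Car9* encodes carbonic anhydrase IX, an enzyme of the cell surface that helps cells to export acid. The gene lies on chromosome 4 at 43506966-43513729 (plus strand). It was expressed at 15.2, 13.0 and 9.49 FPKM in MEC and at 0.08247, 2.01 and 3.39 FPKM in lines 199, 233 and 336. All lines were below all MEC libraries, and line 199 was close to 0. The mean was 12.6 ± 2.89 FPKM in MEC and 1.83 ± 1.66 FPKM in MEKO (SD, n = 3). *Car9* fell by 2.46 ± 0.52 on the log2(FPKM + 1) scale (SE, limma adjusted p = 0.0351), which understates the ratio of genes near 0. The call was lost with a pseudocount of 0.1, with no filter, with quantile normalization, without any single MEC library and without line 233. Over those 7 settings the adjusted p of limma was 0.0506 to 0.139, and over all 14 alternative settings it was 0.00570 to 0.139 with the direction kept. An antisense gene, *Gm12454*, shares 9.29% of the exonic bases of *Car9*, and reads of the strands cannot be told apart since the strand of the counting is not stated.

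HIF binds DNA at a short core whose letters are ACGTG or GCGTG. Windows of 250 bases before the RefSeq start sites (GRCm38.p6) were searched for both words on both strands, where the reverse complements read CACGT and CACGC. The palindrome CACGTG, which is also the core of the E-box of other factors, counts at neighboring positions on both strands. Of the 10 genes, *Ndrg1* and *Angptl4* had no window. The other 8 had 10 windows between them, and 7 of these windows held at least 1 match, beside 38.6% of all 32851 windows. The *Vegfa* window with matches lies inside the gene, with 218 of its 250 bases in exons, and its matches are in that exonic part. The window of the upstream start of *Vegfa* held 0 matches. Outside exons, matches remained only for *Hif1a*, *Bnip3*, *Adm* and *Egln3*, and no such share was taken for all windows. A match describes letters only and is no evidence of binding. *Car9* is shown because it fell and because its window held 1 match, 18 bases before the start. The stretch printed is the 30 bases around it, at chr4:43506996-43507025 (plus strand), with the match in capitals, since the last 60 bases of the window are exonic in GENCODE M21.
Car9: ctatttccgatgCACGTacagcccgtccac

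*Ndrg1* encodes a stress-responsive protein linked to differentiation and is strongly induced by hypoxia in many cells. The gene was expressed at 52.9, 53.9 and 46.3 FPKM in MEC and at 27.7, 3.03 and 8.38 FPKM in the lines. Every line was below every MEC library, with line 199 the nearest to them. The mean was 51.0 ± 4.12 FPKM in MEC and 13.1 ± 13.0 FPKM in MEKO (SD, n = 3), a MEC mean 3.91 times that of MEKO. A log2 fold change of -2.34 ± 0.66 (SE) was found, and its limma adjusted p of 0.0764 did not pass the threshold. Without line 199 the log2 fold change was -3.08 with an adjusted p of 0.00613 in limma, and with sample weights it was -2.82 with an adjusted p of 0.00670. Over its 14 alternative settings the adjusted p was 0.00613 to 0.211 in limma.

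*Bnip3* encodes a protein of the outer mitochondrial membrane that marks mitochondria for autophagy. It was expressed at 16.3, 22.9 and 14.7 FPKM in MEC and at 16.3, 6.74 and 34.6 FPKM in the lines. Line 233 was the lowest of the 6 libraries, line 336 the highest, and line 199 was level with MEC 1. For *Bnip3* the log2 fold change was -0.15 ± 0.54 (SE, limma adjusted p = 0.881), and it was 0.03 without MEC 2 and 0.41 without line 233. The antisense gene *Gm45507* shares 22.3% of the exonic bases of *Bnip3*, and other genes share 8.11% of those of *Hif1a* and 8.43% of those of *Ndrg1*. The window before *Bnip3* is shown because it held 5 matches, the most among the 8 genes with windows, where 1.01% of all windows held 5 or more. The 237 bases outside GENCODE exons are at chr7:138909520-138909756 (minus strand), and capitals mark the matches.
Bnip3: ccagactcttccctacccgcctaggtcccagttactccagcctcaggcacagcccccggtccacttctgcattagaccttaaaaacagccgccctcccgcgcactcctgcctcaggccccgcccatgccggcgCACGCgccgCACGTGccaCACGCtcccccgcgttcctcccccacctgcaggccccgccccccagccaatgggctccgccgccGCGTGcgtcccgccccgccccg

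*Pgf* encodes placental growth factor, a ligand of the receptor FLT1, and lies on chromosome 12 at 85166635-85177790 (minus strand). In MEC 1, 2 and 3 *Pgf* was at 14.9, 17.5 and 16.01 FPKM, and in the lines it was at 1.24, 0.361 and 3.50 FPKM. The MEC libraries were within 1.17-fold of each other, and the highest line was far below the lowest of them. The mean was 16.2 ± 1.31 FPKM in MEC and 1.70 ± 1.62 FPKM in MEKO (SD, n = 3). *Pgf* fell by 2.84 ± 0.43 on the log2(FPKM + 1) scale (SE, limma adjusted p = 0.0133), the largest difference among the 10 genes. The call held in 11 of 14 alternative settings, and it was lost when MEC 1, MEC 2 or MEC 3 was left out, with adjusted p of 0.0682, 0.0679 and 0.0610 in limma. Over the 14 settings the log2 fold change was between -3.64 and -2.43 and the adjusted p of limma between 0.00335 and 0.0682. *Pgf* is shown as the other gene that fell. The window of its downstream start held 0 matches and that of its upstream start held 1, 124 bases before it, and both windows lie in exons of GENCODE M21. The 30 bases around the match are at chr12:85177420-85177449 (minus strand).
Pgf: gccctgcggggtCACGCgcactcaggtctc

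*Vegfa*, the main growth factor for blood vessels, was the most highly expressed of the 10 genes in FPKM, a value per length of transcript. It was at 90.8, 98.3 and 61.8 FPKM in MEC and at 70.5, 42.5 and 58.7 FPKM in the lines. Line 199 lay among the MEC libraries, and lines 233 and 336 lay below them, line 336 by little. Its log2 fold change was -0.54 ± 0.26 (SE, limma adjusted p = 0.229). *Vegfa* was called only with sample weights, where the adjusted p was 0.0430 in limma, and over the 14 alternatives it was 0.0430 to 0.475.

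*Vegfc* encodes the growth factor of lymphatic vessels and was expressed at 5.07, 5.22 and 8.05 FPKM in MEC. In the lines it was at 6.15, 1.11 and 2.05 FPKM. Line 199 was again among the MEC libraries, with lines 233 and 336 below all of them. The log2 fold change was -0.96 ± 0.47 (SE, limma adjusted p = 0.234), and without line 199 it was -1.46 with an adjusted p of 0.0249 in limma, the lowest of its 13 alternatives, whose highest was 0.480.

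*Adm* encodes adrenomedullin, a peptide that dilates vessels and supports endothelial cells. It was expressed at 5.33, 8.70 and 10.0 FPKM in MEC and at 6.32, 1.27 and 19.9 FPKM in the lines. The lines lay on both sides of MEC, with line 336 above all MEC libraries and line 233 below all of them. The mean was 8.01 ± 2.41 FPKM in MEC and 9.15 ± 9.62 FPKM in MEKO (SD, n = 3), while the log2 fold change was -0.32 ± 0.77 (SE, limma adjusted p = 0.813). The means of FPKM and of log2(FPKM + 1) thus differed in opposite directions, and the log2 fold change was 0.49 without line 233. The window before *Adm* is shown because the lines differed at this gene on both sides of MEC. It held 2 matches, 90 and 54 bases before the start, at chr7:110627407-110627656 (plus strand), where 16.7% of all windows held at least 2.
Adm: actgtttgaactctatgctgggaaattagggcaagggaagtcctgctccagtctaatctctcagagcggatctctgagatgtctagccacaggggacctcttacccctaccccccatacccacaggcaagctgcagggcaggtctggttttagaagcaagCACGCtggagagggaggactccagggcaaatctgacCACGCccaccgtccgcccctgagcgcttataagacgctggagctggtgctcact

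*Angptl4* encodes a secreted inhibitor of lipoprotein lipase that also acts on vessels, and both HIF and the fatty acid sensors of the PPAR family are known to induce it. *Angptl4* was at 22.1, 37.5 and 15.1 FPKM in MEC and at 7.59, 1.30 and 55.3 FPKM in the lines. Lines 199 and 233 were below all MEC libraries and line 336 was above all of them. Across the lines the log2 fold change was -1.23 ± 1.104 (SE, limma adjusted p = 0.499). The highest line held 42.7 times the FPKM of the lowest, against 2.47 times between the MEC libraries.

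On the log2(FPKM + 1) scale each of the 10 genes had a larger SD over the MEKO lines than over the MEC libraries, *Vegfa* only by 0.36 against 0.35, and in FPKM the SD of *Vegfa* was larger in MEC, at 19.3 against 14.04 FPKM. The SD of log2(FPKM + 1) over the lines was between 0.28 for *Hif1a* and 2.32 for *Angptl4*, and in MEC it was between 0.09 and 0.63. Over all rows the median SD was 0.33 for the lines and 0.18 for MEC, so a wider spread of the lines was general. For *Angptl4*, *Adm* and *Ndrg1*, 98.6%, 96.0% and 94.7% of all rows had a smaller SD over the lines than these genes. For *Hif1a* and *Vegfa* the shares were 42.1% and 55.2%, near the middle of all rows. *Car9* had a 41.1-fold range over the lines, which rests on the value near 0 in line 199, and *Adm* had a 15.7-fold range.

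With 1 library per line, each line was set beside MEC without a test. Line 199 was below all MEC libraries for 5 of the 10 genes, *Hif1a*, *Pgf*, *Car9*, *Ndrg1* and *Angptl4*, and above them for 0, where 39.1% of all rows were below and 40.2% above. The median difference of its 10 genes from the MEC mean was -0.24 on the log2(FPKM + 1) scale. Line 233 was below all MEC libraries for 9 genes, all but *Egln3*, which was above, beside 37.9% of all rows below and 37.4% above. Its median difference was -1.84, the lowest of the lines. It held 2.23% of the MEC mean FPKM of *Pgf*, 5.199% of that of *Angptl4* and 5.94% of that of *Ndrg1*. Line 336 was above all MEC libraries for 4 genes and below for 6, beside 39.2% and 37.4% of all rows, with a median difference of -0.51. The genes above were *Angptl4*, *Adm*, *Bnip3* and, by little, *Hif1a*. It held 2.48 times the MEC mean FPKM of *Adm*, 2.22 times that of *Angptl4* and 1.92 times that of *Bnip3*, together with 16.4% of that of *Ndrg1* and 26.9% of that of *Car9*. Genes known to answer to HIF thus lay on both sides of MEC within this line.

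Line 233 was the lowest of the lines for 8 of the 10 genes, while it was the lowest for 33.4% of all rows. Line 336 was the highest for 6 of the 10 genes, against 32.5% of all rows, and line 199 was the highest for 3. In lines 199, 233 and 336, *Pgf* was at 7.64%, 2.23% and 21.7% of the MEC mean FPKM, and *Car9* was at 0.656%, 15.95% and 26.9%. *Ndrg1* was less even, at 54.4%, 5.94% and 16.4%.

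**Figure D2:**
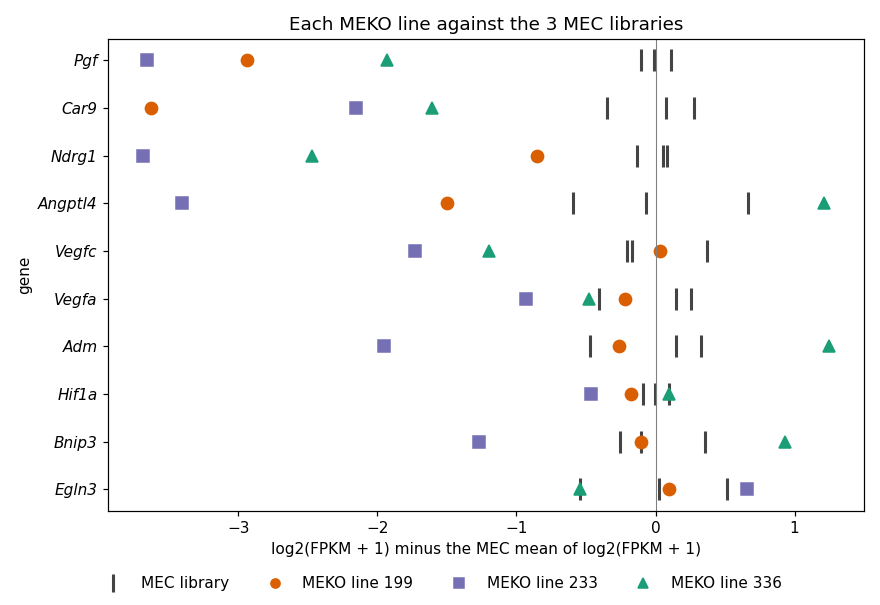
The log2(FPKM + 1) of each MEKO line minus the MEC mean, for the 10 genes ordered by the mean over the lines, with the 3 MEC libraries as vertical ticks. Line 233 (squares) is below the ticks for 9 genes, and line 336 (triangles) is above them for *Angptl4*, *Adm* and *Bnip3* but well below them for *Pgf*, *Car9* and *Ndrg1*.

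The genes within 5 Mb of each of the 10 genes were set beside it. Around *Pgf* the median difference from MEC of 61 tested protein-coding genes was -0.45, -0.17 and 0.22 on the log2 scale in lines 199, 233 and 336, beside -2.94, -3.65 and -1.93 for *Pgf* itself. Around *Car9* the median of 84 genes was -0.19, -0.03 and -0.10, beside -3.63, -2.15 and -1.61 for *Car9*. Around *Angptl4* the median of 140 genes was 0.11, -0.17 and 0.09, while *Angptl4* was at -1.501, -3.40 and 1.21. Over the 10 genes and 3 lines, the median of the neighbors was nearer to 0 than the gene itself in 26 of 30 cases. The other 4 were *Hif1a* in line 336 and *Vegfc*, *Bnip3* and *Adm* in line 199. A median over many genes tends to lie nearer to 0 than a single gene, and no share for other genes was taken. The count therefore cannot show whether whole regions moved, which was not tested.

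Among 29 other genes that HIF is known to induce, all tested, 3 fell, or 10.3% beside 7.26% of all rows, and 0 rose, beside 2.64%. Their median log2 fold change was -0.25, with 20 below 0 and 9 above. The genes that fell were *Ddit4*, *Stc2* and *Bhlhe40*. *Ddit4*, an inhibitor of mTORC1 signaling, was at 193, 159 and 166 FPKM in MEC and at 37.8, 49.8 and 77.4 FPKM in the lines, and fell by 1.69 on the log2 scale (limma, adjusted p = 0.0158). *Stc2* encodes a secreted glycoprotein and was at 21.8, 17.9 and 11.6 FPKM in MEC and at 3.07, 3.53 and 0.344 FPKM in the lines, and fell by 2.59 (limma, adjusted p = 0.0280). The transcriptional repressor *Bhlhe40* was at 229, 224 and 169 FPKM in MEC and at 59.6, 66.7 and 45.3 FPKM in the lines, and fell by 1.84 (limma, adjusted p = 0.00484). In these 3 genes every line was below every MEC library. Over the 29 genes this held for 7, beside 18.7% of all rows, and every line was above every MEC library for 2, beside 18.5%. *Ddit4*, *Stc2* and *Bhlhe40* are induced by other stresses as well.

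Of 14 other angiogenic and lymphangiogenic ligands, 12 were tested, 2 fell, or 16.7% beside 7.26% of all rows, and 0 rose, beside 2.64%, with a median log2 fold change of -1.01. The tested rows of *Fgf2* and *Ang* are joined with *Bbs12* and *Rnase4*, so their levels are not those of the ligand alone, and neither was called. *Fgf1*, a broad fibroblast growth factor, was at 5.03, 9.89 and 7.23 FPKM in MEC and at 0.189, 0.266 and 0.359 FPKM in the lines, and fell by 2.68 on the log2 scale (limma, adjusted p = 0.00371). *Pdgfb*, a ligand that recruits mural cells to vessels, was at 84.8, 106 and 63.9 FPKM in MEC and at 25.5, 14.7 and 20.6 FPKM in the lines, and fell by 2.02 (limma, adjusted p = 0.00913). Both were below MEC in all lines, by a wider margin for *Fgf1*. Of the 12 tested ligands, 5 had every line below every MEC library, beside 18.7% of all rows, and 2 had every line above, beside 18.5%.

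Of 11 endogenous inhibitors of angiogenesis, 10 were tested, 2 rose, beside 2.64% of all rows, and 1 fell, beside 7.26%, with a median log2 fold change of -0.73. The genes that rose were both semaphorins, guidance factors that also restrain endothelial cells. *Sema3a* was at 0.432, 0.223 and 0.387 FPKM in MEC and at 5.42, 3.35 and 10.7 FPKM in the lines, and rose by 2.36 on the log2 scale (limma, adjusted p = 0.0163). *Sema3e* was at 3.76, 3.34 and 3.42 FPKM in MEC and at 17.5, 50.8 and 87.3 FPKM in the lines, and rose by 3.29 (limma, adjusted p = 0.0171). *Adamts1*, a secreted protease that binds VEGF, was at 63.8, 71.9 and 60.4 FPKM in MEC and at 17.4, 4.58 and 6.18 FPKM in the lines, and fell by 2.87 (limma, adjusted p = 0.0137). For each of these inhibitors the groups did not overlap, as in 18.5% of all rows with the lines above and 18.7% with the lines below.

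Of 13 receptors of these ligands, 9 were tested, 1 fell, or 11.1% beside 7.26% of all rows, and 0 rose, beside 2.64%. The tested row of *Ramp2* is joined with *Vps25* and was not called. *Ramp1*, a partner of calcitonin-family receptors, was at 16.8, 16.8 and 25.3 FPKM in MEC and at 1.48, 6.20 and 0.271 FPKM in the lines, and fell by 2.84 on the log2 scale (limma, adjusted p = 0.0369). The VEGF receptors were at low levels in these cultures. *Flt1*, the receptor of *Pgf*, was at 2.36, 3.21 and 0.709 FPKM in MEC and at 6.87, 0.263 and 0.108 FPKM in the lines, with line 199 the highest library. *Kdr*, the main receptor of *Vegfa*, was at 0.0979 to 1.59 FPKM in MEC and at 0.00352 to 0.0773 FPKM in MEKO, and its mean was below the filter. *Flt4*, the receptor of *Vegfc*, was at 1.84 to 3.27 FPKM in MEC and 0.0658 to 3.28 FPKM in MEKO (log2 fold change -0.83, limma adjusted p = 0.362). The coreceptors *Nrp1* and *Nrp2* were at 4.89 to 9.61 and 3.16 to 5.17 FPKM in MEC. In MEKO they were at 6.41 to 25.0 and 3.74 to 45.3 FPKM, with log2 fold changes of 0.76 and 1.56 (limma, adjusted p = 0.339 and 0.242).

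Leaving out a single library changed these calls. Of the genes of all pathway lists, 8 fell and 2 rose in the fit of all libraries, with the PPAR target *Ehhadh* the remaining gene that fell. Without MEC 1 only *Bhlhe40* and *Fgf1* were called lower, and without MEC 2 these and *Pdgfb*. Without MEC 3 the 5 genes called lower were *Bhlhe40*, *Fgf1*, *Pdgfb*, *Ehhadh* and *Aplnr*. *Sema3a* and *Sema3e* were not called without any single MEC library. *Ramp1* was lost without line 199 and without line 336, and *Ramp1* and *Stc2* were lost with a pseudocount of 0.1 and with no filter.

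**Figure D3:**
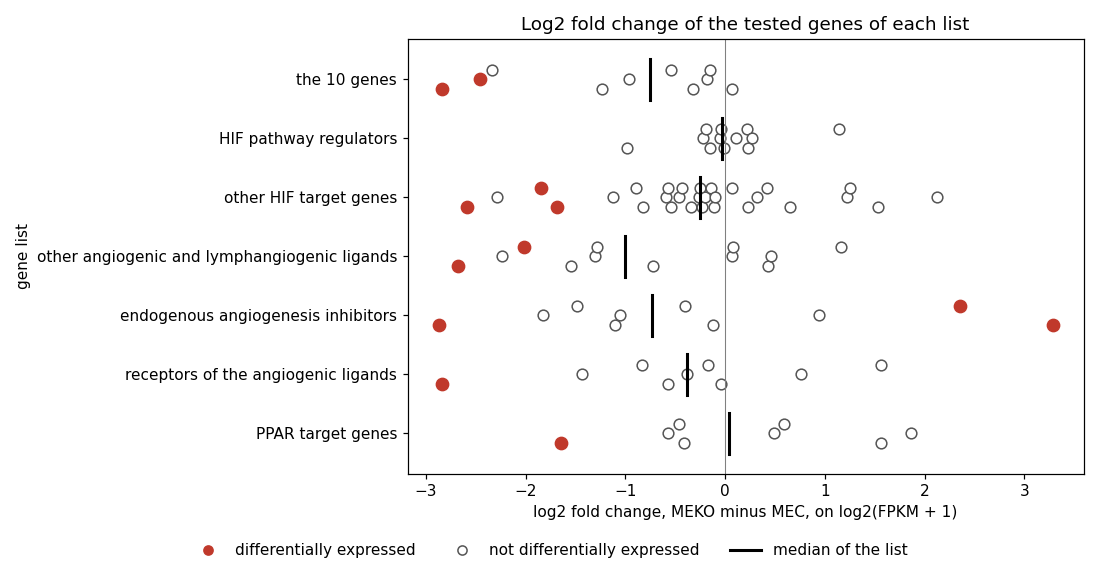
The log2 fold change of MEKO minus MEC on log2(FPKM + 1) for each tested gene of each list, with differentially expressed genes as filled circles and the median of a list as a black bar. The filled circles below 0 are at -1.64 or lower, and the 2 filled circles above 0 are *Sema3a* and *Sema3e*.

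Markers of other cell types were set beside these results, since *Pgf*, *Vegfc* and *Angptl4* can also be expressed by stroma, vessels or fat. The sum of 8 endothelial markers was 24.0, 29.04 and 3.07 FPKM in MEC 1, 2 and 3 and 0.349, 0.197 and 2.32 FPKM in the lines. A row that joins *Egfl7* with 2 other genes was kept out of this sum, and with it the 9 markers summed to 4.22 to 32.5 FPKM in MEC and 4.44 to 9.78 FPKM in MEKO. *Pecam1* was at 4.88, 6.30 and 0.784 FPKM and *Cdh5* at 5.38, 4.90 and 0.586 FPKM in MEC, and in the lines they were at 0.249 FPKM or less and 0.177 FPKM or less. MEC 3 was thus low in endothelial markers. Of the MEC libraries it had the highest sum of the fibroblast markers given below, at 544 FPKM. *Postn* carried this sum, at 445 FPKM in MEC 3 against 243 and 279 FPKM in MEC 1 and 2. *Col1a1*, *Col3a1*, *Pdgfrb*, *Dcn*, *Lum* and *Fap* were lowest in MEC 3 among the MEC libraries. *Pdgfra* was highest there and *Col1a2* lay between the others, so the sum does not rank MEC 3 by fibroblast content. In MEC 3 *Pgf*, *Car9* and *Ndrg1* were at 16.01, 9.49 and 46.3 FPKM. The 7 adipocyte markers summed to 1.48 to 11.8 FPKM in MEC and 0.0898 to 1.21 FPKM in MEKO, with *Plin1* at 0 in all libraries and *Adipoq* at 0 in all MEC libraries and at 0.155 FPKM or less in the lines. The 8 leukocyte markers summed to 7.27 to 14.4 FPKM in MEC and 0.946 to 24.9 FPKM in MEKO, and *Ptprc* was at 0.399 FPKM or less everywhere. The 9 fibroblast markers summed to 378 to 544 FPKM in MEC, to 1421.5 FPKM in line 199 and to 3.08 and 4.37 FPKM in lines 233 and 336. In line 199 this sum was carried by *Col1a1*, *Col1a2* and *Postn*, at 600, 408 and 321 FPKM, of which *Postn* lay within MEC and the others above. *Col3a1*, *Pdgfra* and *Pdgfrb*, at 71.5, 1.31 and 19.0 FPKM, were also above every MEC library. *Dcn*, *Lum* and *Fap*, at 0.311, 0.0264 and 0.124 FPKM, were below every MEC library. The 6 epithelial markers summed to 5441 to 8544 FPKM in MEC and 1304 to 1944 FPKM in MEKO, and *Krt5*, a basal keratin, was at 201 to 435 FPKM in MEC and at 608, 1.33 and 15.3 FPKM in the lines. The part of cell makeup in the results for the 10 genes was not tested.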

How the data were processed

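RNA-seq libraries of 3 MEC preparations and 3 MEKO lines were analysed. The authors trimmed paired-end TruSeq reads with Trimmomatic, aligned them to GRCm38 with Bowtie2 and TopHat2 2.0.14 and quantified genes with Cufflinks 2.2.1. The deposited values are FPKM, which the authors scaled by transcript length and library size. The authors' Cuffdiff comparison was not repeated, and count models were not used because no counts were analysed here.

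Of 37755 rows, 2 held no value, and the 12461 with a mean FPKM of at least 1 were tested. MEKO was compared with MEC in R 4.3.3 with limma 3.58.1 on log2(FPKM + 1), using a trended prior variance, and p-values were adjusted over all rows by Benjamini-Hochberg. The steps were tested on simulated data, drawn for both groups with an SD per gene from the MEC libraries. The wider spread of the lines was thus not part of that test. Single genes were also tested by exact permutation (two-sided). Alternatives were a pseudocount of 0.1, no filter, a minimum mean of 5, TPM, upper-quartile and quantile scaling, an untrended prior, sample weights and the omission of 1 library at a time.

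The text names the 10 genes, *Mapk8*, *Mapk9*, every called gene of each pathway list, receptors and HIF regulators by role, and markers of cell types. *Aplnr* and the genes outside these sets were named after their values were seen. The genes and lists were chosen with earlier results of these data known. Positions are from GENCODE M21 and promoter windows from RefSeq on GRCm38.p6, searched with Python 3.11.15 and pandas 2.3.3. The values carry no read number for each library, the read numbers that the study gives as group means were not used here, and no batch is labelled.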

Additional observations from a re-analysis of the deposited data

How the results depend on the processing

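The number of the 10 genes called lower, 2 in the fit reported, was 1 with a pseudocount of 0.1, 1 with no filter, 1 with quantile normalization and 4 with sample weights, and between 0 and 4 when a library was left out. It was 0 without MEC 1, MEC 2 or MEC 3, 4 without line 199 and 1 without line 233. None of the 10 genes was called higher in any of these settings. The genes of the pathway lists called higher, 2 in the fit reported, were 1 with a minimum mean FPKM of 5, where *Sema3a* did not pass the filter. They were 5 with sample weights, and between 0 and 6 when a library was left out. The genes called lower, 8 in the fit reported, were between 2 and 15 when a library was left out. The log2 fold change of *Bnip3* turned to 0.03 without MEC 2 and 0.41 without line 233, that of *Adm* to 0.49 without line 233, and that of *Egln3* to -0.20 without MEC 3 and -0.23 without line 233. With 1 library left out, it ranged from -0.69 to 0.41 for *Bnip3*, from -1.11 to 0.49 for *Adm* and from -0.23 to 0.37 for *Egln3*. The cause of these shifts was not tested.

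Leaving out a MEC library lowered the calls over all rows as well. The 905 rows called lower became 211, 245 and 388 without MEC 1, 2 and 3, and the 329 called higher became 48, 56 and 89. Without line 199 there were 1398 lower and 568 higher. With sample weights there were 1378 lower and 600 higher. TPM and quantile scaling moved the median log2 fold change of all rows to 0.08 and 0.09. The minimum mean FPKM of 5 gave no value for *Vegfc* and *Egln3*. Among the called genes of the pathway lists it gave none for *Sema3a*, *Fgf1* and *Ehhadh*. No paired analysis was possible because the groups share no replicate number. Read depth per library, not used here, limits most the values near 0, such as *Car9* in line 199 and *Kdr*.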

Other observations

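*Angptl4* is also a target of the PPAR family of fatty acid sensors, and 10 other genes known to answer to these factors were read beside it, of which 8 were tested, 1 fell, or 12.5% beside 7.26% of all rows, and 0 rose, beside 2.64%, with a median log2 fold change of 0.04. *Ehhadh*, an enzyme of peroxisomal fatty acid oxidation, was at 2.66, 2.31 and 3.16 FPKM in MEC and at 0.0916, 0.310 and 0.161 FPKM in lines 199, 233 and 336, and fell by 1.64 on the log2 scale (limma, adjusted p = 0.0112). Other genes are named here after their values were seen. *Pdk4*, a kinase that restrains pyruvate oxidation, was at 3.11, 5.89 and 2.70 FPKM in MEC and at 4.28, 12.9 and 67.2 FPKM in the lines (log2 fold change 1.86, limma adjusted p = 0.229). *Cpt1a*, which carries fatty acids into mitochondria, was at 5.21, 5.65 and 8.86 FPKM in MEC and at 15.8, 14.9 and 38.8 FPKM in the lines (log2 fold change 1.57, limma adjusted p = 0.0576). *Plin2*, a coat protein of lipid droplets, was at 311, 346 and 232 FPKM in MEC and at 80.8, 252 and 464 FPKM in the lines (log2 fold change -0.46, limma adjusted p = 0.649). In line 336, which held the most *Angptl4*, 6 of the 8 tested genes were above every MEC library, beside 39.2% of all rows. The other 2, *Ehhadh* and *Acadm*, were below every MEC library, beside 37.4%. In line 233, which held the least *Angptl4*, 4 were above, beside 37.4% of all rows, and 3 below, beside 37.9%. In line 199, 1 was above, beside 40.2%, and 4 were below, beside 39.1%. No test was made of these counts with 1 library per line.

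*Hmox1*, the enzyme that breaks down heme and a gene of the oxidative stress response as well as of HIF, was at 26.3, 39.7 and 19.2 FPKM in MEC and at 48.7, 50.7 and 725 FPKM in the lines. Line 336 stood far above the others, and the log2 fold change was 2.13 (limma, adjusted p = 0.239). *Hilpda*, a HIF target that inhibits lipid breakdown, was at 13.9, 14.6 and 10.0 FPKM in MEC and at 11.9, 60.2 and 43.0 FPKM in the lines, so that line 233, the lowest for most of the 10 genes, was the highest library for it. Its log2 fold change was 1.25 (limma, adjusted p = 0.210).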
